A study of Homo sapiens with 18 samples.

Results

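Palbociclib against DMSO was compared between the CAMA-1 and ZR-75-1 breast cancer cell lines, to ask which transcripts responded differently in the 2 lines. For each gene, the log2 fold change in CAMA-1 was subtracted from that in ZR-75-1. A positive difference thus means a higher log2 fold change in ZR-75-1. Below, genes called higher or lower in ZR-75-1 relative to CAMA-1 differ in this way, whatever their levels in the lines. The comparison used 12 of the 18 libraries of the series and all 11987 genes that passed a filter on low counts.

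CAMA-1 and ZR-75-1 are established oestrogen receptor-positive, luminal breast cancer lines, here wild-type parental cells grown in the same medium with serum. Each line was given DMSO, the solvent, or palbociclib at 500 nM, and RNA was taken at day 5. There were 3 libraries in each of the 4 groups, which the study describes as independent biological replicates. Libraries of the same lines given abemaciclib at 500 nM entered the fit and are compared at the end. Each line stands for 1 tumour, so a difference between these lines cannot be told apart from any other difference between their tumours of origin.

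Palbociclib blocks the kinases CDK4 and CDK6, which phosphorylate the retinoblastoma protein (Rb). Unphosphorylated Rb binds E2F transcription factors and holds the genes of DNA replication and mitosis silent, so cells stop in G1. Cells held in G1 often go on growing, and a long arrest is known to alter metabolism, secretion and stress responses besides the cell cycle. Rb also has partners on the promoters and enhancers of other genes.

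The 12 libraries held 2726445 to 4146549 counts, and each detected 15257 to 16563 genes. One count stood for 0.241 to 0.367 CPM (counts scaled to a common library total), and a floor of 3 counts for 0.723 to 1.10 CPM. CPM values of a gene are set only against its own in other libraries. All 10 luminal markers examined, among them KRT8, KRT18, ESR1 and GATA3, exceeded 3 counts in every group. KRT5, a defining basal marker, was at 0 throughout, and so were COL1A2, DCN, PDGFRB and FAP of fibroblasts. Other fibroblast markers were not absent: COL1A1 held 38 to 108 counts over all groups. COL3A1 went from 2 to 6 counts with DMSO to 18 to 21 with palbociclib in CAMA-1 and was at 0 in ZR-75-1. The summed CPM of 6 basal markers went from between 5.5 and 8.24 to between 33.2 and 36 in CAMA-1, through MYLK and ACTA2, and went from between 8.76 and 12.3 to between 2.14 and 6.63 in ZR-75-1; the part of this in the results was not tested. Mitochondrially encoded transcripts took a share of the counts that moved differently in the lines: 15.7% ± 0.87 with DMSO and 23.6% ± 1.15 with palbociclib in CAMA-1, against 20.2% ± 2.68 and 18.98% ± 0.70 in ZR-75-1 (SD, n = 3). Within ZR-75-1, DMSO replicates 2 and 3 lay furthest apart, with shares of 17.3% and 22.6%.

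The response differed between the lines for 2438 genes, or 20.3% of those tested (edgeR quasi-likelihood test, adjusted p under 0.05). Of these, 1201 genes (10%) were higher in ZR-75-1 relative to CAMA-1 and 1237 (10.3%) were lower, and 847 differed by at least 2-fold. The median difference over all tested genes was −0.02 on the log2 scale. In CAMA-1, palbociclib raised 2173 genes (18.1%) and lowered 1865 (15.6%). In ZR-75-1 it raised 1603 (13.4%) and lowered 1482 (12.4%).

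Genes with a called difference fell into classes. In 304 genes (2.54%), both lines were called and the directions were opposite: 185 rose in CAMA-1 and fell in ZR-75-1, and 119 did the reverse. Of the 304, the groups of libraries did not overlap for 286 in CAMA-1, for 274 in ZR-75-1 and for 258 in either line. Of all tested genes, 5266 did not overlap in CAMA-1 and 4459 did not in ZR-75-1. The 304 were chosen by calls in both lines, which makes such separation likely, so it is no separate evidence. Another 290 genes moved the same way in both lines to a different extent, and 216 of them moved further in CAMA-1. A gene was counted as moving in 1 line where it was called there and the 95% interval of the other line lay within ±0.5 log2. By that rule 694 genes (5.79%) moved in CAMA-1 only, 333 up and 361 down, and 354 (2.95%) moved in ZR-75-1 only, 203 up and 151 down. A further 423 and 224 genes were called in CAMA-1 or in ZR-75-1 with an interval too wide in the other line to count. Membership of single genes was less stable than these totals: 122 of the 304 opposite genes, 288 of the 694 genes in CAMA-1 only and 120 of the 354 in ZR-75-1 only kept their class under all 20 other settings, and 126, 294 and 120 did so in every fit that left out 1 library. In bulk RNA, fewer cells in a state and less transcript per cell cannot be told apart.

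**Figure D1:**
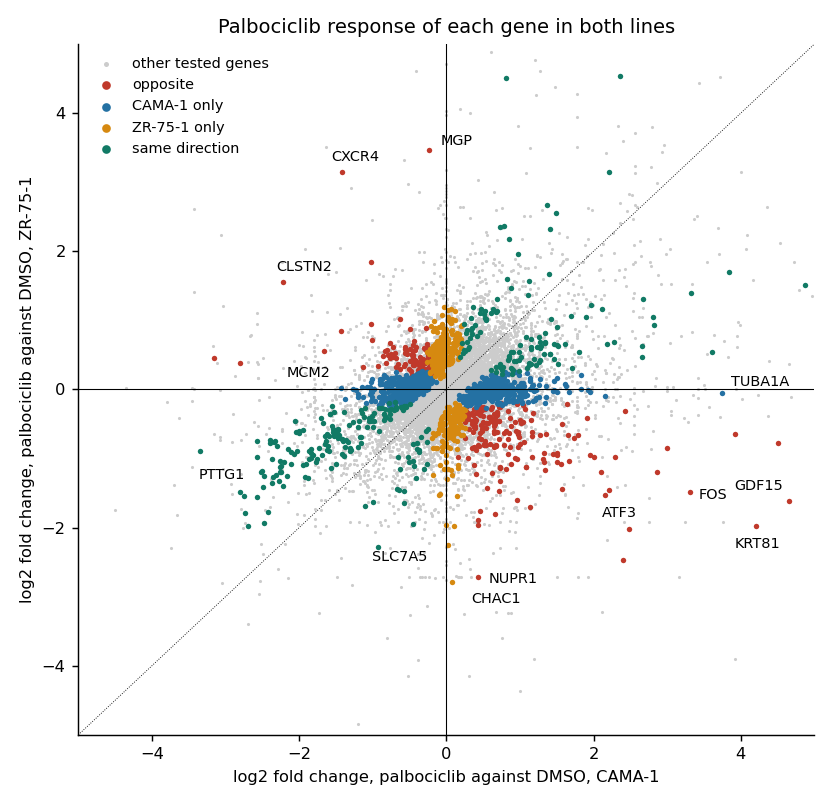
Log2 fold change of each gene with palbociclib against DMSO in CAMA-1 (horizontal) and ZR-75-1 (vertical), 1 point a gene. Colours mark the 304 genes called in opposite directions, the 694 and 354 genes moving in CAMA-1 only and ZR-75-1 only, and the 290 moving the same way by different amounts; grey points are all other genes, the dotted line marks equal responses, and 12 genes lie beyond the axes.

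Opposite movement was frequent among immediate early genes, which growth factor and stress signals switch on within minutes and which encode AP-1 subunits (FOS, FOSB, JUN, JUNB), zinc finger factors (EGR1, the KLF family) and signal inhibitors (DUSP1). Of 26 tested genes, 21 were lower in ZR-75-1 relative to CAMA-1 and 0 higher, against 10.3% and 10% of all genes. Both shares are also the background for the list counts below. Palbociclib raised 22 of them and lowered 1 in CAMA-1, where the list median was 1.32, and raised 4 and lowered 14 in ZR-75-1, where it was −0.69. The medians over all genes were 0.03 and −0.01. In 12 of the 26 both calls were made in opposite directions.

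EGR1 (ENSG00000120738.8, chromosome 5, 138465479 to 138469303) is a zinc finger factor induced through the MAP kinase pathway. Its promoter is shown because serum response factor acts on such genes through the CArG box. The window is from RefSeq (GRCh38.p14, chr5:138465361-138465440, plus strand), and capitals mark CArG box matches:
EGR1: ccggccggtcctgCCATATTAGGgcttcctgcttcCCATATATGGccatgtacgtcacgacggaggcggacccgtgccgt
The CArG box was present, on either strand, in the promoter of 1 of 20 immediate early genes with a promoter sequence (250 bases before to 50 after the start) and in 1.04% of those of the tested genes (1.29% of all 27305 promoters). The cyclic AMP response element TGACGTCA was in 3 of the 20 (DUSP1, JUND and MAFF) against 3.5% of the tested genes and 1.98% of all.

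In CAMA-1, EGR1 held 76.98, 66.7 and 55.4 CPM in the DMSO libraries and 330.2, 357 and 276 with palbociclib. In ZR-75-1 it held 144, 238 and 59.4 CPM with DMSO and 68.2, 89.5 and 70.1 with palbociclib. The CAMA-1 groups stood well apart, whereas the ZR-75-1 groups overlapped, since DMSO replicate 3 lay below every palbociclib library. The log2 fold changes were 2.29 (SE 0.19) and −0.97 (SE 0.20), and their difference was −3.26 (SE 0.28, adjusted p = 5.8e-15).

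FOS (ENSG00000170345.10, chromosome 14, 75278826 to 75282230), the AP-1 subunit of the earliest response, showed the same pattern at a lower level. It went from 4.47, 4.35 and 2.298 CPM to 40.4, 31.9 and 34.01 in CAMA-1. The ZR-75-1 libraries held 19.6, 25.5 and 3.8000 CPM untreated and 2.81, 7.12 and 7.95 treated. Again the ZR-75-1 DMSO libraries spread widely, with replicate 3 within the treated range. The difference between the lines was −4.79 (SE 0.47, adjusted p = 1.8e-12).

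JUN, the partner of FOS in AP-1, rose from 52.1, 43.2 and 57.2 CPM to 128, 127 and 132 CPM in CAMA-1. It fell from 97.9, 143 and 76.3 CPM to 46.01, 52.9 and 55.7 CPM in ZR-75-1. The groups did not overlap in either line, and the difference was −2.38 (SE 0.20, adjusted p = 6.9e-15). KLF6, a zinc finger factor with growth-restraining roles, rose in CAMA-1 from 79.5, 88.1 and 104 to 191, 186 and 171 CPM. It fell in ZR-75-1 from 143, 185 and 138 to 79.4, 89.5 and 102 CPM, with no overlap, and its difference was −1.79 (SE 0.14). KLF2 and KLF4 went the same opposite ways, with differences of −2.31 and −2.25. So did FOSB (−3.67), JUNB (−1.41), DUSP1 (−3.29), IER2 (−1.62) and KLF10 (−1.33). The ZR-75-1 groups of JUNB and DUSP1 and the CAMA-1 groups of KLF10 overlapped. FOSB and JUNB overlap the genes ERCC1 and HOOK2, so reads could have been shared.

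The number of immediate early genes called in opposite directions was 8 with DESeq2 or without ZR-75-1 DMSO replicate 2, which was the highest of the 6 ZR-75-1 libraries for FOS, EGR1, JUN and DUSP1. It was 8 to 12 over the fits that left out 1 library each. The number lower in ZR-75-1 relative to CAMA-1 stayed between 19 and 21.

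Stress and growth-arrest genes included the largest opposite change. GDF15 (ENSG00000130513.6, chromosome 19, 18374731 to 18389176), a secreted cytokine of the TGF-β family induced by p53 and by amino acid stress, held 4.47, 6.36 and 8.96 CPM in the CAMA-1 DMSO libraries, and the treated libraries held 173, 176 and 169. The ZR-75-1 values were 134, 127 and 104 CPM untreated and 38.99, 36.3 and 44.2 treated. The treated CAMA-1 libraries were the highest of all 12 and the untreated CAMA-1 libraries the lowest, with no overlap in either line. GDF15 rose by 4.65 (SE 0.16) in CAMA-1, fell by 1.61 (SE 0.12) in ZR-75-1 and differed by −6.26 (SE 0.20, adjusted p = 1.9e-35).

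CDKN1A (ENSG00000124762.14, chromosome 6, 36676460 to 36687337) encodes p21, an inhibitor of cyclin-dependent kinases and a classical p53 target. Its CAMA-1 values were 8.62, 8.04 and 12.6 CPM with DMSO and 28.4, 36.99 and 30.6 with palbociclib. Its ZR-75-1 values were 147, 156 and 133 CPM with DMSO and 77.99, 65.4 and 68.9 with palbociclib. ZR-75-1 started far above CAMA-1 and fell, while CAMA-1 rose, and the lines did not meet. The difference was −2.70 (SE 0.21, adjusted p = 2.4e-16). BBC3, the pro-apoptotic PUMA, went from 62.3 ± 12.4 to 99.01 ± 5.05 CPM in CAMA-1 and from 45.4 ± 5.97 to 29.96 ± 5.33 in ZR-75-1 (SD, n = 3; difference −1.25, SE 0.19).

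Of 39 p53 targets tested, 14 were lower in ZR-75-1 relative to CAMA-1 and 2 higher. Together these were 41% of the list, against 20.3% of all tested genes. Palbociclib raised 13 and lowered 4 in CAMA-1 (median 0.30), and raised 3 and lowered 12 in ZR-75-1 (median −0.20). The fourth gene in opposite directions, KITLG, the ligand of KIT, was at the edge of the threshold in ZR-75-1 (−0.35, adjusted p = 0.049) and kept its class under 4 of 20 other settings. MDM2, which p53 induces to limit itself, had log2 fold changes of 0.00 (SE 0.09) and 0.08 (SE 0.08) and was called in neither line. ZMAT3, an RNA-binding p53 target, rose in CAMA-1 only, by 0.92 (SE 0.16).

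**Figure D2:**
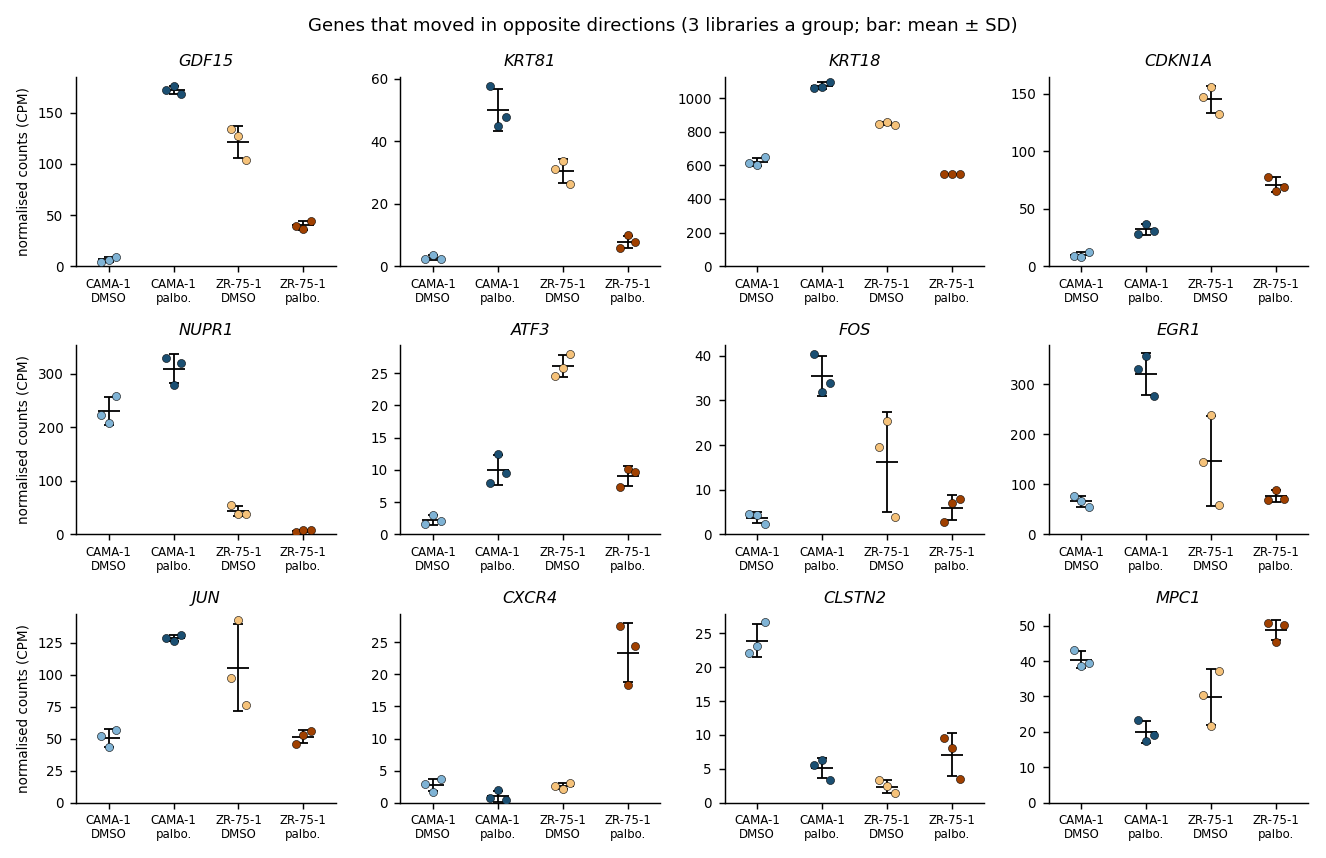
Normalised counts (CPM) of 12 genes called in opposite directions, with 3 libraries a group as points and the mean ± SD as bars. GDF15, KRT81, KRT18, CDKN1A, NUPR1, ATF3, FOS, EGR1 and JUN rose in CAMA-1 and fell in ZR-75-1, with the 3 ZR-75-1 DMSO libraries of FOS and EGR1 far apart, and CXCR4, CLSTN2 and MPC1 did the reverse.

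Keratins form the intermediate filaments of epithelial cells, and KRT8, KRT18 and KRT19 mark the luminal type. All 7 keratins tested rose in CAMA-1 (median 1.62). In ZR-75-1, 4 fell and 1 rose (median −0.44), and 6 of the 7 were lower there relative to CAMA-1. That was 85.7% of the keratins, against 20.3% of all tested genes with a difference. KRT81 (ENSG00000205426.10, chromosome 12, 52285913 to 52291534), a hair-type keratin found in breast cancer cells, held 2.24, 3.68 and 2.298 CPM with DMSO and 57.8, 44.96 and 47.6 with palbociclib in CAMA-1. The ZR-75-1 libraries held 31.1, 33.8 and 26.3 CPM untreated and 5.89, 9.83 and 7.66 treated. No groups overlapped within a line, and the difference was −6.19 (SE 0.33, adjusted p = 1.6e-23). KRT80 went from 31.6 ± 5.66 to 126 ± 4.92 CPM in CAMA-1 and from 7.63 ± 0.909 to 3.84 ± 0.277 in ZR-75-1.

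KRT8 and KRT18, which pair into 1 filament, differed by −1.43 (SE 0.10) and −1.42 (SE 0.09). These genes are neighbours whose annotations overlap, keratins have close relatives and KRT18 has many pseudogenes, so their counts are less certain. KRT7 and KRT19 rose in CAMA-1 only. KRT7 went from 215, 227 and 223 to 698, 683 and 669 CPM there. In ZR-75-1, where it was low, it held 8.84, 12.9 and 6.56 CPM with DMSO and 10.7, 10.5 and 8.54 with palbociclib, and the groups overlapped.

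Among junction genes, of 31 tested, 8 were lower in ZR-75-1 relative to CAMA-1 and 1 was higher. A difference was thus called in 29% of them, against 20.3% of all tested genes. DSP, the desmosomal plaque protein that anchors keratin filaments, rose in CAMA-1 from 396, 385 and 405 to 524, 575 and 519 CPM. It fell in ZR-75-1 from 263, 250.3 and 254 to 162, 143 and 129.9 CPM, with no overlap in either line (difference −1.27, SE 0.10). The desmosomal cadherin DSC2 and the tight junction claudin CLDN4 went the same ways, with differences of −1.99 and −1.52. The exception was CTNNB1 (β-catenin), which fell by 0.24 in CAMA-1 and rose by 0.45 in ZR-75-1, with a difference of 0.69 (SE 0.12). CDH1 (E-cadherin) was called in neither line (0.01 and −0.06). Without CAMA-1 DMSO replicate 1, DSC2 and CTNNB1 were no longer called in opposite directions, which left 2 junction genes of 4.

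ATF4 is the transcription factor of the amino acid response, which raises amino acid transporters, biosynthetic enzymes and tRNA synthetases when amino acids or protein folding fail. Of 37 ATF4-related genes, 15 were lower in ZR-75-1 relative to CAMA-1 and 5 higher (median difference −0.71). Palbociclib lowered 25 and raised 3 in ZR-75-1 (median −0.87), and lowered 15 and raised 5 in CAMA-1 (median −0.20). ATF4 itself fell in both lines, further in ZR-75-1: from 319 ± 57.000 to 215 ± 14.6 CPM in CAMA-1 and from 336 ± 50.8 to 122 ± 10.4 in ZR-75-1 (difference −0.89, SE 0.13, adjusted p = 4.5e-07).

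The composite element that ATF4 binds with C/EBP partners was searched as TGATGNAA on both strands. It was in the promoters of 4 of 29 ATF4-related genes, 6 of 19 tRNA synthetase genes and 1.5% of tested genes (3.67% of all 27305 promoters). The promoters of 3 such genes are given as examples, with the match in capitals, from RefSeq (GRCh38.p14). CHAC1 lies at chr15:40953226-40953305 (plus strand), ATF3 at chr1:212565180-212565259 (plus strand) and AARS1 at chr16:70289650-70289729 (minus strand):
CHAC1: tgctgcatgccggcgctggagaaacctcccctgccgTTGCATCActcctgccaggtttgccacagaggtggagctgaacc
ATF3: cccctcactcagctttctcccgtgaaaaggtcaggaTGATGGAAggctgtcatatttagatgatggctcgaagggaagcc
AARS1: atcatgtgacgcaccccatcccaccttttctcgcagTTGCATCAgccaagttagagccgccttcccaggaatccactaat
In CHAC1 and AARS1 the match is on the strand opposite to the gene, and in ATF3 it is on the same strand.

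CHAC1 (ENSG00000128965.13, chromosome 15, 40952962 to 40956512) encodes an enzyme that degrades glutathione. It held 16.3, 20.8 and 14.7 CPM with DMSO and 19.97, 21.1 and 19.4 with palbociclib in CAMA-1. The ZR-75-1 values fell from 18.01, 11.3 and 20.7 CPM to 2.52, 1.695 and 0.884 CPM. The CAMA-1 groups overlapped, while every treated ZR-75-1 library was far below the DMSO libraries. The difference was −3.48 (SE 0.46, adjusted p = 2e-08), and the CAMA-1 interval of −0.26 to 0.73 was too wide to count the gene as moving in ZR-75-1 only.

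SLC7A5 (ENSG00000103257.9, chromosome 16, 87830023 to 87869507), the carrier that brings leucine and other large neutral amino acids into the cell, did meet that rule. Its CAMA-1 values were 88.5, 107 and 106 CPM with DMSO and 99.9, 107 and 98.6 with palbociclib. Its ZR-75-1 values were 60.2, 40.2 and 46.99 CPM with DMSO and 10.4, 8.48 and 11.8 with palbociclib. The CAMA-1 groups overlapped and the treated ZR-75-1 libraries all lay far below the DMSO libraries, with a difference of −2.27 (SE 0.20, adjusted p = 3.6e-14). CEBPG, a partner of ATF4, and SESN2, a leucine sensor that restrains mTORC1, also fell in ZR-75-1 only (−1.24 and −0.62).

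ATF3 and NUPR1, stress-induced regulators downstream of ATF4, moved in opposite directions. ATF3 rose in CAMA-1 from 1.597, 3.01 and 2.07 to 7.94, 12.5 and 9.52 CPM. It fell in ZR-75-1 from 24.6, 25.8 and 27.98 to 7.29, 10.2 and 9.72 CPM, with a difference of −3.69 (SE 0.42, adjusted p = 3.8e-10). NUPR1 rose modestly in CAMA-1, from 229.8 ± 26.2 to 309 ± 26.8 CPM, and dropped in ZR-75-1 from 43.5 ± 9.72 to 6.63 ± 1.61 CPM (SD, n = 3; difference −3.14, SE 0.21). STC2, a secreted glycoprotein, followed with a difference of −1.62, though not called in opposite directions without ZR-75-1 DMSO replicate 3. Against this direction of difference, SLC1A5 and SLC1A4, carriers of glutamine and serine, fell in CAMA-1 only (−0.78 and −0.57).

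Among 23 cytosolic tRNA synthetases, which load amino acids onto tRNAs, 7 were lower in ZR-75-1 relative to CAMA-1 and 1 was higher. A difference was called in 34.8% of them, against 20.3% of all tested genes. CARS1, GARS1, SARS1 and TARS1 fell in ZR-75-1 only, TARS1 from 241, 204 and 244 to 128, 144 and 131 CPM against 173, 198 and 177 and 186, 184 and 174 in CAMA-1. LARS1, the leucyl enzyme, rose in CAMA-1 (0.39) and fell in ZR-75-1 (−0.47). AARS1, whose promoter is shown above, fell in both lines (−0.41 and −0.78).

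Chaperones of the endoplasmic reticulum, which fold secreted proteins and are raised by the unfolded protein response, went up mainly in ZR-75-1. Palbociclib raised 22 of 39 and lowered 1 in that line (median 0.41), and raised 9 and lowered 2 in CAMA-1 (median 0.15). Relative to CAMA-1, 11 were higher in ZR-75-1 and 4 lower. The 8 genes that rose in ZR-75-1 only were HSPA5, HSP90B1, CALR, HYOU1, CRELD2, PDIA4, PDIA6 and SELENOS.

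These genes are known targets of ATF6 and XBP1 through the endoplasmic reticulum stress element, searched on both strands as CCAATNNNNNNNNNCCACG. The element was in the promoters of 7 of 34 chaperone genes, against 14 of 9295 tested genes (0.151%) and 0.0806% of all promoters. The 7 were CALR, CANX, CRELD2, ERO1B, HSP90B1, HSPA5 and XBP1. Not all of them rose in ZR-75-1 only: XBP1 rose and CANX fell (−0.15) in CAMA-1 only. The promoters of 4 genes that rose in ZR-75-1 only are shown, with the element in capitals, from RefSeq (GRCh38.p14). They lie at chr9:125241361-125241440 (minus strand), chr19:12938359-12938438 (plus), chr22:49918523-49918602 (plus) and chr12:103930290-103930369 (plus):
HSPA5: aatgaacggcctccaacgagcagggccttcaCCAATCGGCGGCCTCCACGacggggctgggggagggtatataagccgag
CALR: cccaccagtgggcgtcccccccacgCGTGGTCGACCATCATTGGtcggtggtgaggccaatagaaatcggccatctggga
CRELD2: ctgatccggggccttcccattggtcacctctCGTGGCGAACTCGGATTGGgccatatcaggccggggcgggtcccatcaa
HSP90B1: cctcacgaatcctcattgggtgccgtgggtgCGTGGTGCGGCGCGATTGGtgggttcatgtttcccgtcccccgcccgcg
The element reads along the gene in HSPA5 and on the opposite strand in CALR, CRELD2 and HSP90B1.

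CRELD2 (ENSG00000184164.15, chromosome 22, 49918167 to 49927540), a disulphide isomerase-like chaperone, had the largest change of these. Its CAMA-1 values were 57.8, 47.9 and 47.8 CPM with DMSO and 50.8, 44.7 and 39.5 with palbociclib. Its ZR-75-1 values were 62.9, 60.7 and 49.4 CPM with DMSO and 115, 111 and 119 with palbociclib. The CAMA-1 groups overlapped and the ZR-75-1 groups stood apart, with a difference of 1.16 (SE 0.18, adjusted p = 6e-07). The gene left the ZR-75-1 only class without CAMA-1 DMSO replicate 2 or 3 or palbociclib replicate 1. CRELD2 overlaps ALG12, so some reads could belong to that gene.

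HSPA5, the main chaperone of this compartment (BiP), rose in ZR-75-1 from 330.4, 375 and 334 to 528, 569 and 662 CPM. In CAMA-1 it held 468, 456 and 534 CPM with DMSO and 528, 518 and 597 with palbociclib, and the groups overlapped. CALR, the calcium-binding chaperone of glycoproteins, rose by 0.67 (SE 0.07) in ZR-75-1 against 0.08 (SE 0.07) in CAMA-1. XBP1, the transcription factor of this response and an oestrogen-induced luminal factor, was instead counted in CAMA-1 only. There it rose from 667 ± 25.5 to 1102 ± 34.2 CPM, but it left that class with DESeq2 and with mitochondrial genes removed. SDF2L1, a BiP co-factor, fell in CAMA-1 (−0.57) and rose in ZR-75-1 (0.53), whereas HERPUD1, which helps degrade misfolded proteins, rose in CAMA-1 (0.59) and fell in ZR-75-1 (−0.40), where its groups overlapped and the fall was lost in 5 of 20 other settings.

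Heat shock chaperones, most of them cytosolic, leaned down in CAMA-1. Of 34 tested, palbociclib lowered 16 and raised 8 in CAMA-1 (median −0.25), and lowered 3 and raised 7 in ZR-75-1 (median 0.11), so that 14 were higher and 3 lower in ZR-75-1 relative to CAMA-1. Among the 11 that moved in CAMA-1 only were 6 subunits of the CCT ring, which folds actin and tubulin: CCT2, CCT5, CCT6A, CCT7, CCT8 and TCP1. CCT5 fell there from 459 ± 13.8 to 286 ± 12.2 CPM and held 384 ± 18.3 and 362 ± 7.62 CPM in ZR-75-1 (SD, n = 3). HSP90AA1, the stress-inducible HSP90, its co-chaperone FKBP4 and the HSP70 partner HSPH1 fell in CAMA-1 and rose in ZR-75-1. HSPH1 lost the opposite call without a filter and without CAMA-1 palbociclib replicate 1 or 3, and FKBP4 without CAMA-1 DMSO replicate 3. For HSP90AA1 the CAMA-1 libraries held 3677, 3552 and 3953 CPM with DMSO and 2961, 2948 and 2962 with palbociclib. Its ZR-75-1 libraries held 4181, 4668 and 4091 and 5636, 5840.00 and 5391 CPM, with no overlap in either line (difference 0.72, SE 0.08). HSPB1 (HSP27), a small heat shock protein, went the other way and rose in CAMA-1 only, from 2725, 3009 and 2170.00 to 6140.00, 6374 and 6427 CPM, against 2402, 2556 and 2449 and 2705, 2488 and 2529 CPM in ZR-75-1.

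**Figure D3:**
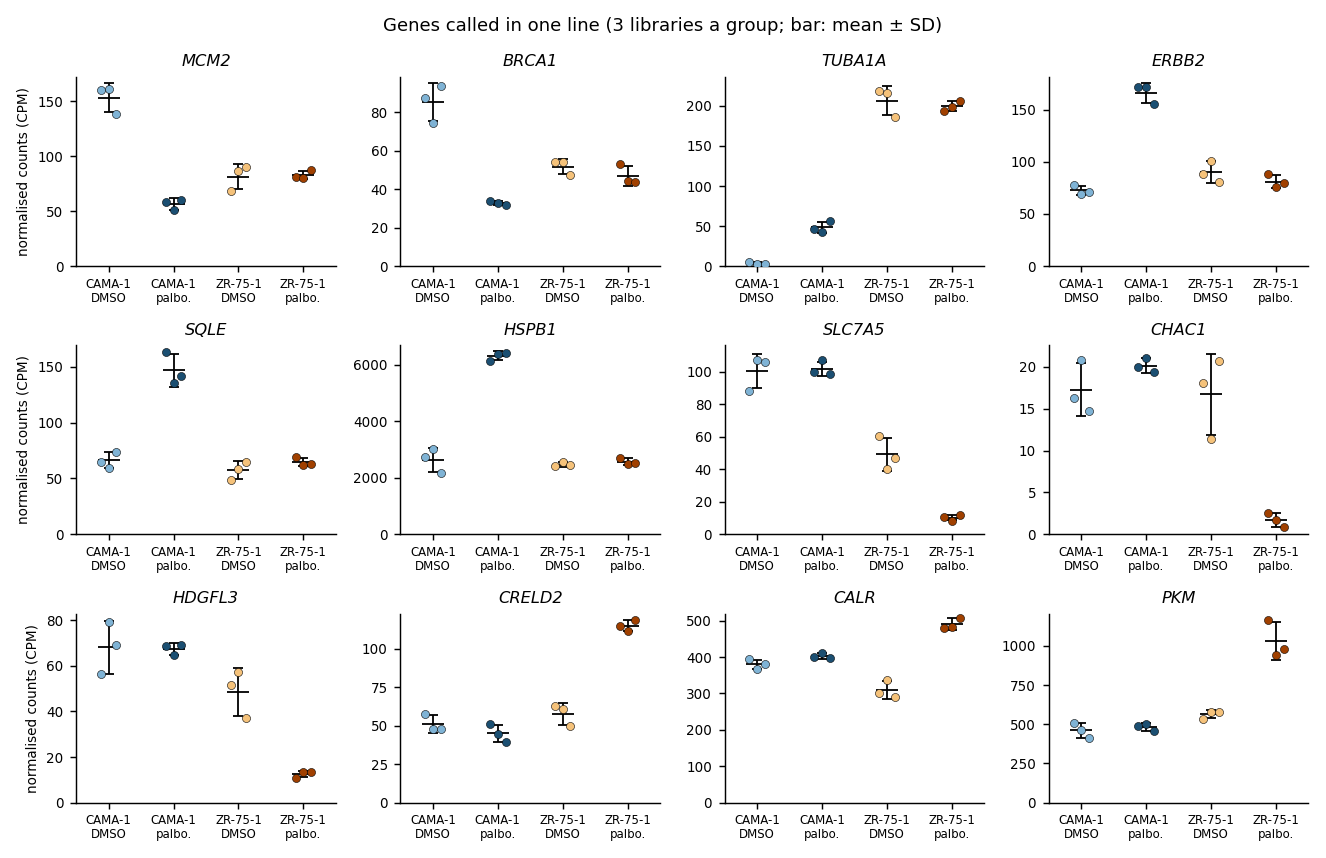
Normalised counts (CPM) of 12 genes called in 1 of the lines, with 3 libraries a group as points and the mean ± SD as bars. MCM2 and BRCA1 fell and TUBA1A, ERBB2, SQLE and HSPB1 rose in CAMA-1; SLC7A5, CHAC1 and HDGFL3 fell and CRELD2, CALR and PKM rose in ZR-75-1, while the other line stayed near its DMSO level.

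Genes of cholesterol synthesis and uptake, controlled together by the factor SREBP2, rose mainly in CAMA-1. Palbociclib raised 15 of 25 and lowered 3 in CAMA-1 (median 0.50), and raised 2 and lowered 8 in ZR-75-1 (median −0.09). Relative to CAMA-1, 13 were lower in ZR-75-1 and 2 higher. HMGCS1 (ENSG00000112972.15, chromosome 5, 43287470 to 43313512), an early enzyme of the pathway, held 46.95, 49.2 and 47.1 CPM with DMSO and 77.97, 79.4 and 76.5 with palbociclib in CAMA-1. Its ZR-75-1 values went from 94.96, 105 and 93.97 CPM to 65.6, 77.99 and 71.3 CPM. The libraries did not overlap in either line, and the difference was −1.16 (SE 0.15, adjusted p = 8.2e-09).

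SREBF2, which encodes SREBP2, was also called in opposite directions. It rose from 41.8, 40.5 and 39.1 to 57.5, 52.9 and 61.6 CPM in CAMA-1 and fell from 47.5, 54.3 and 59.1 to 42.9, 38.6 and 28.3 CPM in ZR-75-1. The later enzymes SQLE and MSMO1 rose in CAMA-1 only, SQLE by 1.14 (SE 0.11) and MSMO1 by 1.17 (SE 0.12), although SQLE left that class without ZR-75-1 DMSO replicate 3, and MVK and FDFT1 fell in ZR-75-1 only (−0.56 and −0.35). Fatty acid synthesis genes, which the related factor SREBP1 controls, had the same median of 0.24 in both lines. Of 26 tested, 4 differed between the lines (15.4%, against 20.3% of all tested genes). FASN, the fatty acid synthase, rose in both, by 0.98 in CAMA-1 and 0.27 in ZR-75-1.

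**Figure D4:**
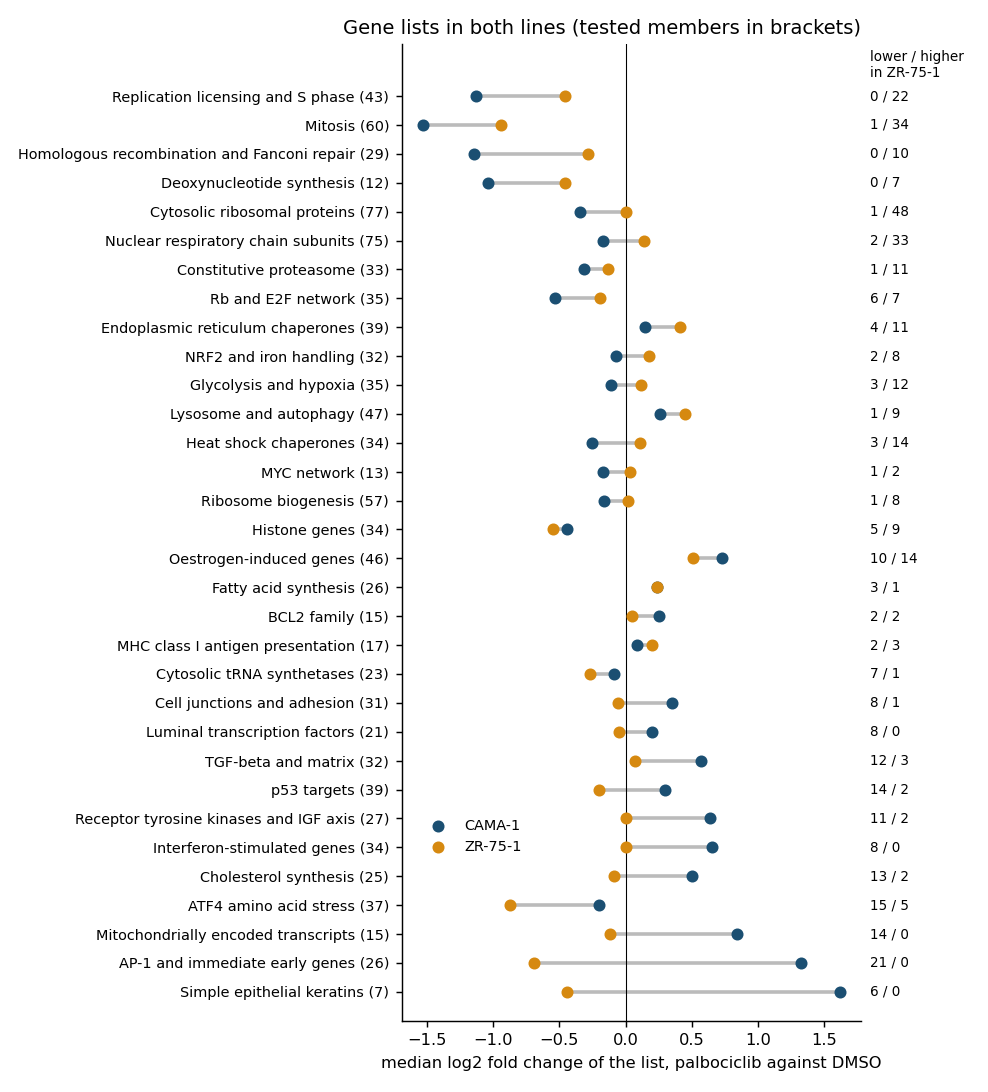
Median log2 fold change with palbociclib against DMSO of 32 gene lists in CAMA-1 (dark blue) and ZR-75-1 (orange), ordered by their median difference, with the tested members in brackets. The numbers at the right give the members called lower and higher in ZR-75-1 relative to CAMA-1; immediate early genes (21 and 0) and keratins (6 and 0) lie at the lower end and the replication list (0 and 22) at the upper.

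Cell cycle genes fell in both lines, many of them less in ZR-75-1. Of 60 mitotic genes, 57 fell in CAMA-1 (median −1.53) and 55 in ZR-75-1 (median −0.94), and 0 rose in either. In all, 34 were higher in ZR-75-1 relative to CAMA-1. The exception was the checkpoint protein BUB3, which was lower there (−0.51, SE 0.14). PTTG1 (securin), which guards sister chromatids until anaphase, fell from 385, 381 and 357 to 71.7, 68.9 and 59.9 CPM in CAMA-1 and from 212, 206 and 186 to 82.5, 95.3 and 76.9 CPM in ZR-75-1. The cell cycle homology region TTTGAA, through which the DREAM complex acts, was in 35 of 52 promoters of mitotic genes, against 9.2% of tested and 15.4% of all promoters.

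Genes of DNA replication fell mainly in CAMA-1. Of 43 licensing and S phase genes, 41 fell in CAMA-1 (median −1.13) and 17 in ZR-75-1 (median −0.46), with 22 higher and 0 lower in ZR-75-1 relative to CAMA-1. The 5 that fell in CAMA-1 only were MCM2, MCM3, MCM4 and MCM5, subunits of the helicase that licenses origins, and LIG1, the ligase of lagging-strand synthesis. MCM2 (ENSG00000073111.14, chromosome 3, 127598410 to 127622436) held 160.3, 161 and 139 CPM with DMSO and 58.5, 50.6 and 60.5 with palbociclib in CAMA-1. In ZR-75-1 it held 68.1, 86.5 and 89.8 CPM with DMSO and 81.1, 80.02 and 87.5 with palbociclib. The treated CAMA-1 libraries lay far below their controls, whereas the ZR-75-1 groups overlapped (95% interval −0.19 to 0.24), and the difference was 1.46 (SE 0.15, adjusted p = 1.2e-11).

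E2F1 and CDK2 also fell in CAMA-1 only (−0.89 and −0.79). Among 29 genes of homologous recombination and the Fanconi pathway, 20 fell in CAMA-1 (median −1.14) and 10 in ZR-75-1 (median −0.28), with 10 higher and 0 lower in ZR-75-1. BRCA1, which repairs double-strand breaks, went from 87.5, 74.3 and 93.8 to 33.7, 33.01 and 31.6 CPM in CAMA-1. In ZR-75-1 it held 54.03, 53.99 and 47.3 CPM with DMSO and 53.02, 44.1 and 43.6 with palbociclib, and its groups overlapped. It was not counted as CAMA-1 only without ZR-75-1 DMSO replicate 3 or palbociclib replicate 1. BRCA1 overlaps NBR2, and the strand used in counting is not known. DCTPP1, which clears damaged deoxycytidine nucleotides, fell in CAMA-1 (−0.30) and rose in ZR-75-1 (0.60).

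Transcripts of the mitochondrial genome, which encodes core subunits of the respiratory chain, rose in CAMA-1. Of 15 tested, 14 rose there (median 0.84) and 7 fell in ZR-75-1 (median −0.12), so that 14 were lower in ZR-75-1 relative to CAMA-1. The mitochondrial share of counts changed by 7.87 percentage points in CAMA-1 and by −1.17 in ZR-75-1, and this difference of −9.04 points had an exact two-sided permutation p of 0.03 over 400 arrangements. Without ZR-75-1 DMSO replicate 3 it was −7.80 points (exact permutation p = 0.055). Without replicate 2 it was −10.5 (exact permutation p = 0.005, over 200 arrangements). These p-values come from treatment labels permuted within each line. Their reference is no effect of palbociclib in either line, so they do not test whether the changes in the lines were equal. MT-ND5 rose in CAMA-1 from 2350.00, 2271 and 2156 to 4633, 5216 and 4071 CPM. In ZR-75-1 it held 3626, 3021 and 3650.00 CPM with DMSO and 3227, 2833 and 2767 with palbociclib, and DMSO replicate 2 lay within the treated range. Of the 6 mitochondrial genes called in opposite directions, MT-ATP8 kept that call in every setting, whereas the other 5 lost it with DESeq2 and without ZR-75-1 DMSO replicate 3. Without ZR-75-1 palbociclib replicate 2, 2 of the 6 kept it, and without ZR-75-1 DMSO replicate 1 or palbociclib replicate 3 there were 3.

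Nuclear genes for respiratory chain subunits did the reverse. Of 75 tested, palbociclib lowered 33 and raised 6 in CAMA-1 (median −0.17), and lowered 4 and raised 28 in ZR-75-1 (median 0.14), and 33 were higher and 2 lower in ZR-75-1 relative to CAMA-1. The 8 in opposite directions included NDUFB1 of complex I, UQCR10 of complex III, and COX4I1, COX5A, COX5B and COX6A1 of complex IV. COX5B went from 305, 292 and 292 to 252, 267 and 242 CPM in CAMA-1 and from 146, 128 and 129 to 161, 166 and 165 CPM in ZR-75-1, with no overlap in either line. The number in opposite directions was 5 to 11 under other settings. COX5A lost that call in 5 of 20 (without a filter, and without ZR-75-1 DMSO replicate 1 or 2 or palbociclib replicate 1 or 3), and UQCR10 lost it without ZR-75-1 DMSO replicate 3. COX6C, also of complex IV, went the other way and rose in CAMA-1 only (0.61, SE 0.07).

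Cytosolic ribosomal proteins fell in CAMA-1. Of 77 tested, 56 fell and 2 rose there (median −0.34), while 2 fell and 8 rose in ZR-75-1 (median −0.00, or −0.02 to 0.01 under other scalings). In all, 48 were higher in ZR-75-1 relative to CAMA-1 and 1 was lower, and 41 moved in CAMA-1 only. RPS6, a small subunit protein phosphorylated on growth signals, went from 3159 ± 98.9 to 2385 ± 68.5 CPM in CAMA-1 and held 3263 ± 147 and 3184 ± 102 CPM in ZR-75-1 (SD, n = 3). RPLP0, a stalk protein, fell by 0.47 in CAMA-1 and rose by 0.17 in ZR-75-1, a rise no longer called without ZR-75-1 DMSO replicate 2 or palbociclib replicate 1 or 2. Ribosomal proteins have many processed pseudogenes, so single values are less certain.

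The mitochondrial share of counts rose in CAMA-1 beside these falls. With mitochondrial genes removed before scaling, 56 ribosomal proteins and 41 nuclear respiratory chain genes were higher in ZR-75-1 relative to CAMA-1. The whole set of calls then split into 1385 higher and 1071 lower. That removal raised the median difference over all genes from −0.02 to 0.03, so all differences moved up with it and the larger counts are no separate evidence. The part of the mitochondrial share in the falls was not tested.

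**Figure D5:**
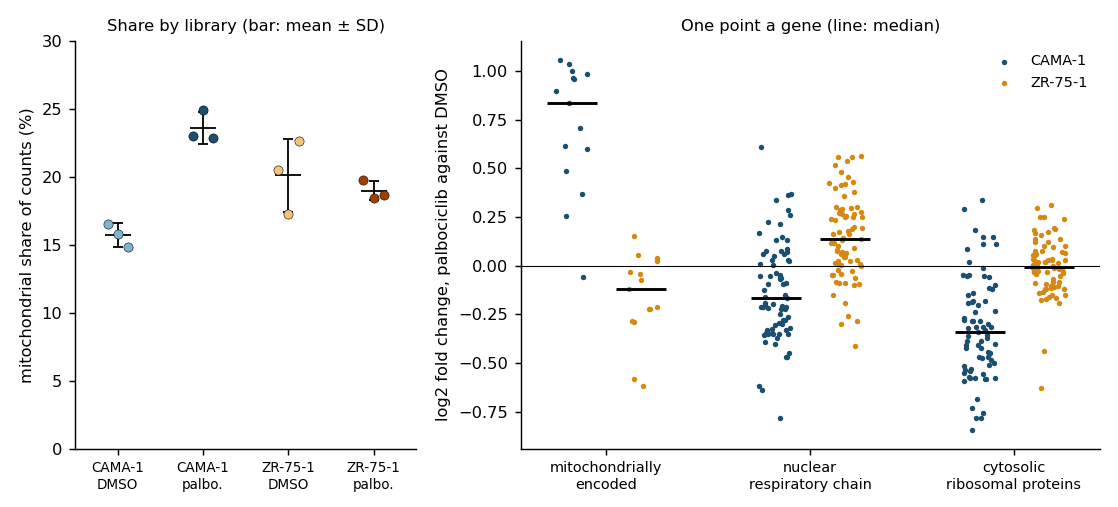
Left, the share of counts from mitochondrially encoded genes in each library, with the mean ± SD of 3 libraries. Right, log2 fold changes of single genes with palbociclib against DMSO in CAMA-1 and ZR-75-1, with the median as a line: mitochondrially encoded transcripts (0.84 and −0.12), nuclear respiratory chain genes (−0.17 and 0.14) and ribosomal proteins (−0.34 and −0.00).

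Growth factor receptors and their relatives leaned towards CAMA-1. Of 27 receptor tyrosine kinase and IGF axis genes, 11 were lower in ZR-75-1 relative to CAMA-1 and 2 higher, with medians of 0.64 in CAMA-1 and −0.00 in ZR-75-1 (−0.02 to 0.14 under other scalings). Those with a difference made up 48.1% of the list, against 20.3% of all tested genes. ERBB2 (ENSG00000141736.13, chromosome 17, 39687914 to 39730426), which encodes HER2, held 77.3, 68.99 and 71.5 CPM with DMSO and 172, 172 and 155 with palbociclib in CAMA-1. The ZR-75-1 libraries held 88.4, 101 and 80.2 CPM untreated and 87.8, 75.95 and 79.5 treated. Only the CAMA-1 groups stood apart, and the difference was −1.34 (SE 0.14, adjusted p = 1.1e-11). ERBB2 overlaps MIEN1 and PGAP3.

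Its dimerisation partner ERBB3 and AREG, a ligand of the EGF receptor, were called in opposite directions. ERBB3 rose in CAMA-1 from 142, 157 and 167 to 241, 244 and 244 CPM and fell in ZR-75-1 from 170.3, 156 and 158 to 122, 110.5 and 122 CPM, with no overlap in either line. AREG rose in CAMA-1 from 17.6, 17.8 and 14.7 to 49.1, 49.8 and 35.4 CPM. It fell in ZR-75-1 from 81.2, 73.6 and 68.1 to 42.9, 35.3 and 38.3 CPM (difference −2.38, SE 0.20). The insulin receptor INSR rose in CAMA-1 only (0.73), and IGF1R rose there (1.30) with an interval of −0.19 to 0.56 in ZR-75-1.

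TGF-β and matrix genes also leaned to CAMA-1, with 12 of 32 lower and 3 higher in ZR-75-1 relative to CAMA-1. Together 46.9% of them differed, against 20.3% of all tested genes. SKIL, an inhibitor of SMAD signalling, rose from 20.1 ± 3.14 to 64.1 ± 8.32 CPM in CAMA-1 and fell from 23.2 ± 5.12 to 14.7 ± 1.41 in ZR-75-1, a fall no longer called without ZR-75-1 DMSO replicate 2 or 3. ITGA2, a collagen receptor subunit, rose in CAMA-1 (1.35) and fell in ZR-75-1 (−0.65). MGP (ENSG00000111341.10, chromosome 12, 14880864 to 14885857), an inhibitor of calcification in the matrix, was a large exception. It held 693, 721 and 726 CPM with DMSO and 627, 589 and 606 with palbociclib in CAMA-1. In ZR-75-1 it went from 788, 788 and 784 to 8424, 8271 and 9373 CPM. The DMSO libraries of the lines were close, and no groups overlapped within a line. It rose by 3.46 (SE 0.07) in ZR-75-1 and fell by 0.23 (SE 0.06) in CAMA-1 (difference 3.70, SE 0.09, adjusted p = 2.5e-42).

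Oestrogen-induced genes rose in both lines, 27 of 46 in each, with medians of 0.73 in CAMA-1 and 0.51 in ZR-75-1. The difference between the lines went both ways, with 14 higher and 10 lower and a median of −0.02 (−0.03 to 0.04 under other scalings). BCAS1, a gene amplified in breast cancer, rose in CAMA-1 from 49.2, 45.9 and 53.8 to 259, 282 and 266 CPM. It fell slightly in ZR-75-1, from 142, 155 and 138 to 111, 119.7 and 121 CPM (difference −2.73, SE 0.13). OLFM1 and ELOVL2 fell in CAMA-1 and rose in ZR-75-1, with differences of 1.39 and 1.19. ELOVL2 lost the opposite call in 5 of 20 other settings (without a filter, and without ZR-75-1 DMSO replicate 2 or 3 or palbociclib replicate 2 or 3), and BCAS1 lost it without ZR-75-1 DMSO replicate 2. Of 21 luminal transcription factors, 8 were lower and 0 higher in ZR-75-1 relative to CAMA-1. EHF, an epithelial ETS factor, rose in CAMA-1 only, from 15.01, 16.8 and 11.7 to 50.8, 52.4 and 47.6 CPM, against 292, 254 and 277 and then 287, 269.6 and 266 CPM in ZR-75-1.

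Of 34 interferon-stimulated genes, which cells raise against viruses, 17 rose in CAMA-1 and 7 in ZR-75-1, and 8 were lower and 0 higher in ZR-75-1 relative to CAMA-1. Their median was 0.65 in CAMA-1 and 0.00 in ZR-75-1 (−0.04 to 0.00 under other scalings). Against 10.3% lower among all tested genes, a lower fold change in ZR-75-1 was called for 23.5% of these interferon-stimulated genes. The interferon-stimulated response element, searched as TTTCNNTTTC on both strands, was in 18 of 28 promoters of these genes, 2.46% of those of tested genes and 3.65% of all. In the class I antigen presentation list, HLA-B rose in CAMA-1 only, from 119.6 ± 7.99 to 192 ± 13.1 CPM, and reads of HLA genes can be shared between relatives. It left that class with upper-quartile scaling and without ZR-75-1 DMSO replicate 2 or palbociclib replicate 1. MCL1, which protects from apoptosis, rose in CAMA-1 only (0.80, SE 0.08).

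In glycolysis, 12 of 35 genes were higher and 3 lower in ZR-75-1 relative to CAMA-1. A difference was thus called in 42.9%, against 20.3% of all tested genes. PKM, the last enzyme of the pathway, rose in ZR-75-1 only, from 535, 579.8 and 579 to 1168, 941 and 978 CPM, against 509.8, 462 and 409.5 and 491, 499.6 and 455 CPM in CAMA-1. LDHA and PGK1 fell in CAMA-1 only (−0.62 and −0.41). LDHA left the CAMA-1 only class with upper-quartile scaling and without ZR-75-1 DMSO replicate 3. Without that replicate its line difference of 0.34 was not called either. STC1, a secreted hormone induced by hypoxia, fell in CAMA-1 from 53.7, 51.9 and 56.99 to 5.05, 5.12 and 8.503 CPM and rose slightly in ZR-75-1, from 28.8, 37.7 and 27.98 to 45.2, 44.4 and 40.4 CPM. The opposite call of STC1 was lost without ZR-75-1 DMSO replicate 1 or 3 or palbociclib replicate 1 or 2. NQO1, a detoxifying enzyme under NRF2, fell in CAMA-1 (−0.68) and rose in ZR-75-1 (0.33). Lysosomal genes rose in both lines, 20 of 47 in CAMA-1 and 29 in ZR-75-1, with 9 higher and 1 lower in ZR-75-1. A difference was thus called in 21.3% of them, near the 20.3% of all tested genes.

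Genes that fell in CAMA-1 and rose in ZR-75-1 were fewer at large fold changes: of the 22 opposite genes that moved at least 2-fold in both lines, 3 had this orientation, CXCR4, CLSTN2 and SLC6A6. CXCR4 (ENSG00000121966.7, chromosome 2, 136114349 to 136119177), the receptor of the chemokine CXCL12, held 5 to 16 counts with DMSO and 1 to 7 with palbociclib in CAMA-1. In ZR-75-1 it went from 2.62, 2.15 and 3.11 to 27.5, 18.3 and 24.4 CPM. The rise in ZR-75-1 was 3.15 (SE 0.35), whereas the CAMA-1 groups overlapped at a few counts, and opposite directions were called in 15 of 20 other settings. CLSTN2, a synaptic cadherin relative, fell from 22.04, 23.1 and 26.7 to 5.54, 6.26 and 3.401 CPM in CAMA-1 and rose from 3.27, 2.45 and 1.38 to 9.54, 8.14 and 3.53 CPM in ZR-75-1.

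SLC6A6, the taurine carrier, held 9.18 ± 1.44 and 4.501 ± 0.281 CPM in CAMA-1 and 2.82 ± 0.229 and 10.3 ± 1.66 CPM in ZR-75-1, with DMSO before palbociclib. MPC1, a subunit of the mitochondrial pyruvate carrier, fell from 43.1, 38.5 and 39.5 to 23.3, 17.4 and 19.1 CPM in CAMA-1. It rose from 30.4, 21.8 and 37.3 to 50.8, 45.4 and 50.1 CPM in ZR-75-1 (difference 1.73, SE 0.23, adjusted p = 1.5e-08). The non-coding RNA SNHG9 and the complement regulator SUSD4 went the same ways (1.98 and 2.28). No groups of these 4 genes overlapped within a line.

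The genes with the largest fitted differences were mostly near the counting floor in a group. WNT4, a secreted WNT ligand, had 0 counts in each ZR-75-1 DMSO library and 10 to 23 with palbociclib, at least 5.41-fold higher, and rose in CAMA-1 from 6.24 ± 1.07 to 23.98 ± 3.43 CPM. ENTREP1 had 0 counts with DMSO in CAMA-1 and 8 to 10 with palbociclib, at least 2.92-fold higher. AQP3, a water and glycerol channel, rose in CAMA-1 from 10.5, 9.04 and 4.83 to 113, 108 and 138 CPM, and held 0 to 4 counts with DMSO and 0 with palbociclib in ZR-75-1. Bounds are against a floor of 3 counts per library. ZNF682, RNF128, LRRK2 and PCDH7 had a group at 0 and a group of at most 7 counts in the same line, and no fold is given for them. ANKRD18B, called in opposite directions, held 0 to 1 counts with DMSO and 1 to 5 with palbociclib in CAMA-1, against 17.4 ± 1.68 and 7.49 ± 1.54 CPM in ZR-75-1, and kept that call in 14 of 20 other settings.

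The genes with the largest differences among those moving in 1 line covered several functions. In CAMA-1 only, TUBA1A, an α-tubulin, rose from 5.11, 3.01 and 2.76 to 46.2, 42.4 and 56.5 CPM, and it held 218, 216 and 186 and 194, 199 and 207 CPM in ZR-75-1. It overlaps and resembles TUBA1C, so reads could have been shared. MACC1, a regulator of the MET receptor gene, rose in CAMA-1 (1.95). PNP, which degrades purine nucleosides, and YBX2, a germ cell RNA-binding protein, fell there (−1.22 and −1.26). YBX2 kept the CAMA-1 only class in 9 of 20 other settings, being lost with DESeq2, with the replicate block, with upper-quartile scaling, with mitochondrial genes removed and without CAMA-1 DMSO replicate 2 or any 1 of the 6 ZR-75-1 libraries. PNP lost it without ZR-75-1 DMSO replicate 2 or 3. NR2F2, a nuclear receptor, was called as rising in CAMA-1 from 0 to 2 to 3 to 8 counts, near the floor, and held 136 ± 18.3 and 128 ± 5.29 CPM in ZR-75-1.

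In ZR-75-1 only, STOM (stomatin), a membrane protein, fell from 88.2 ± 5.77 to 22.5 ± 2.26 CPM, with 108 ± 6.44 and 116 ± 9.14 CPM in CAMA-1 (SD, n = 3). HDGFL3, a relative of hepatoma-derived growth factor, fell by 1.96 (SE 0.17). TRIL, a partner of Toll-like receptors, went from 4 to 6 to 0 to 2 counts, near the floor. The rises in ZR-75-1 only were led by SNX24, a sorting nexin, and TENT5C, a poly(A) polymerase, at 1.19 and 1.08. ABHD2, a lipid hydrolase, rose from 50.1, 49.4 and 48.4 to 91.5, 94.3 and 93.4 CPM there. No change was called for these genes in CAMA-1. ABHD2 left the ZR-75-1 only class without CAMA-1 DMSO replicate 1 or 3 or palbociclib replicate 1 or 3, and SNX24 and TENT5C left it without CAMA-1 DMSO replicate 1 or palbociclib replicate 3.

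Abemaciclib, another CDK4/6 inhibitor at the same dose and time, was used to ask whether the difference between the lines depended on the drug. The difference between lines was itself different for the 2 drugs in 336 genes (2.8%), 212 higher with palbociclib and 124 lower, and 216 of these were also called in the palbociclib difference. The contrasts with DMSO share the DMSO libraries, but these cancel out of the comparison between the drugs. In mitosis, 30 of 60 genes depended on the drug and all 30 were higher. PTTG1 had a line difference of 1.23 with palbociclib and −1.58 with abemaciclib (adjusted p = 7.4e-17 for the difference between the drugs). With abemaciclib it held 48.2, 53.2 and 39.04 CPM in CAMA-1. The ZR-75-1 libraries given abemaciclib held 6.304, 8.34 and 10.7 CPM, all below those of CAMA-1.

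The immediate early response also depended on the drug, with 13 of 26 genes lower and 0 higher, and a median line difference of −1.49 with palbociclib and −0.72 with abemaciclib. EGR1 differed by −3.26 and −0.71, and FOS by −4.79 and −1.05. In the keratins 4 of 7 depended on the drug. KRT18 was among them, with −1.42 and −0.91, whereas KRT81 did not pass, with −6.19 and −6.58. CDKN1A showed a larger line difference with abemaciclib (−4.49 against −2.70, adjusted p = 6.6e-10). SCD, the desaturase of fatty acids, changed sign: its line difference was −0.50 with palbociclib and 0.78 with abemaciclib (adjusted p = 2e-15).

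For other genes no dependence on the drug was called. GDF15 differed by −6.26 and −6.19, and the drugs differed by −0.07 (95% interval −0.51 to 0.37). SLC7A5 differed by −2.27 and −2.52 (0.26, interval −0.28 to 0.80), and NUPR1 by −3.14 and −3.15 (0.01, interval −0.51 to 0.52). Of 37 ATF4-related genes, 3 did depend on the drug, a larger share than the 2.8% of all tested genes. Of 77 ribosomal proteins, 2 did, near that 2.8%. The median line difference of the ribosomal proteins was 0.36 with palbociclib and 0.32 with abemaciclib.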

How the data were processed

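RNA from CAMA-1 and ZR-75-1 cells given DMSO, palbociclib or abemaciclib was sequenced from the 3′ ends of transcripts (QuantSeq). The authors trimmed the reads with BBDuk, aligned them to hg38 with STAR 2.7.5b, counted them with featureCounts 2.0.1 against GENCODE 35, and deposited whole-number counts that were not normalised. The strand setting and the use of molecular identifiers are not given in the sources used here, and labels and methods name different kit directions, so overlapping and antisense genes are uncertain. Rows without a symbol held 0.0736% of the counts.

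Groups were taken from the labels. After filterByExpr, 11987 genes were fitted with edgeR 4.0.16 (R 4.3.3; TMM scaling, quasi-likelihood F test, 6 group means, 12 residual degrees of freedom, all 18 libraries). P-values were adjusted by Benjamini and Hochberg over all genes tested and called under 0.05, and intervals are 95%. The contrasts of a line share its DMSO libraries. Coordinates are those of GENCODE 44 on GRCh38. Floors of 3 counts cover counting error only. No pair of replicates agreed within sampling noise (chi-square per degree of freedom of 1.83 to 5.18).

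Named genes had a mean of at least 10 counts and a called difference. They were the 5 with the largest difference in each direction, the 6 of each orientation of opposite movement whose smaller change was largest, the 4 with the largest difference in each class moving in 1 line, and the leading and opposite members of 32 gene lists. Other list members are named with their values. Some genes of the rule are not reported here. The comparison, the lists and the rule were chosen with earlier results of these data known.

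Alternatives were RLE or upper-quartile scaling, no filter or a stricter one, mitochondrial genes removed, DESeq2 1.42.0 (the study's tool), the replicate number as a block, a fit of 12 libraries, adjusted p under 0.01, a 2-fold minimum, no bound on the other line, and each library left out. The main fit was tested on simulated data with known changes. It recovered 64 of 100 line differences of 2-fold and 88 of 100 of 4-fold, with 8 false calls. Line differences of 2-fold could therefore be missed.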

Additional observations from a re-analysis of the deposited data

Results flagged for a closer look

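The response to palbociclib differed between the lines for 2438 genes, for 304 of them with calls in opposite directions, by a test of the difference itself in each gene. The difference between the lines was itself different for palbociclib and abemaciclib in 336 genes. The share of mitochondrially encoded counts differed in its change by −9.04 percentage points, ZR-75-1 minus CAMA-1 (exact permutation test, two-sided). The reference of that test is no effect of palbociclib in either line, not equal changes.

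Of the genes that rose in CAMA-1 and fell in ZR-75-1, the differences of log2 fold changes were −6.26 for GDF15, −6.19 for KRT81, −4.79 for FOS, −4.07 for ANKRD18B, −3.69 for ATF3 and −3.67 for FOSB. Of those that fell in CAMA-1 and rose in ZR-75-1, they were 1.73 for MPC1, 1.98 for SNHG9, 2.28 for SUSD4, 2.88 for SLC6A6, 3.77 for CLSTN2 and 4.57 for CXCR4. These came from the same tests (edgeR, adjusted over all genes). CXCR4 and ANKRD18B rested on few counts in CAMA-1. The groups have 3 libraries each, so single libraries that stood far from the others were not tested.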

How the results depend on the processing

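The naming rule chose 180 genes, not all of them described here, and these were refitted under each setting. Other list members named with their values were not followed one by one. The direction of the difference was the same in every setting for these 180, and 167 stayed on their side of the threshold throughout. The 13 that lost the call in at least 1 setting were ACACA, AQP3, BID, LDHA, LRRK2, MACROH2A2, MXI1, NR2F2, PCDH7, RNF128, TAPBP, TRIL and ZNF682, several of them near the counting floor. At adjusted p under 0.01 there were 1476 genes with a difference, 168 in opposite directions, 460 in CAMA-1 only, 209 in ZR-75-1 only and 183 that depended on the drug. With at least 2-fold required, 847 genes differed. With no bound on the other line, 1117 genes counted as CAMA-1 only and 578 as ZR-75-1 only. Leaving out 1 library at a time gave 2102 to 2293 differences, 250 to 296 in opposite directions, 569 to 642 in CAMA-1 only, 279 to 330 in ZR-75-1 only, 259 to 326 that depended on the drug, and a difference in mitochondrial share of −10.5 to −7.80 points. These totals hide changes of membership: 126 opposite genes, 294 in CAMA-1 only and 120 in ZR-75-1 only kept their class without each library. With mitochondrial genes removed, 1385 genes were higher and 1071 lower in ZR-75-1 relative to CAMA-1. With the replicate number as a block there were 2330 differences and 300 in opposite directions. Libraries with the same number did not deviate together (correlations of −0.06 to −0.00), so the numbers were not taken to pair them. Depth limits genes near 3 counts in a library, and groups of 3 limit the interval of the unmoved line.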

Other observations

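Protein turnover and chromatin genes were also compared. Of 33 subunits of the constitutive proteasome, which degrades tagged proteins, 21 fell and 1 rose in CAMA-1 (median −0.31), and 13 fell and 2 rose in ZR-75-1 (median −0.13). Relative to CAMA-1, 11 were higher in ZR-75-1 and 1 lower. PSMD1, a subunit of its regulatory particle, rose in ZR-75-1 only, from 163, 177 and 161 CPM to 209, 213 and 214 CPM. Of 34 histone genes, 22 fell in CAMA-1 and 20 in ZR-75-1, 9 were higher and 5 lower in ZR-75-1 relative to CAMA-1, and 9 depended on the drug.

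Of 57 ribosome biogenesis genes, 17 fell in CAMA-1 and 7 in ZR-75-1, and 8 were higher and 1 lower in ZR-75-1 relative to CAMA-1. Of all tested genes, 15.6% fell in CAMA-1 and 12.4% in ZR-75-1. Of 32 NRF2 and iron handling genes, 8 were higher and 2 lower. Of 35 genes of the Rb and E2F network, 7 were higher and 6 lower, and of 12 deoxynucleotide synthesis genes, 7 were higher and 0 lower. In 17 genes of class I antigen presentation, 3 were higher and 2 lower. In 13 genes of the MYC network, 2 were higher and 1 lower, and in 15 of the BCL2 family, 2 were higher and 2 lower. A difference was called for 15.8% of the ribosome biogenesis, 23.1% of the MYC network and 26.7% of the BCL2 family genes. These shares were near the 20.3% of all tested genes. The NRF2, Rb and E2F, deoxynucleotide and antigen presentation lists had 31.2%, 37.1%, 58.3% and 29.4%.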
